A study of Homo sapiens with 6 samples.

Results

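The distal 15 Mb of the long arm of chromosome 3, bands 3q27 to q29, held 1898 of the 167796 peaks in 2 peak lists of the DEK oncoprotein. The members are all peaks of either list that overlap hg19 chr3:183000000-198000000, which gave 275 of 15017 peaks in replicate 1 and 1623 of 152779 in replicate 2. The members were chosen by measured values, since the region was selected on the density, the sharing and the tags of its DEK peaks in these same lists, so the density of peaks, their sharing between lists and their tag counts are a description and were not tested. The study mapped DEK by chromatin immunoprecipitation and sequencing (ChIP-seq) in U937, an established human myeloid line grown in suspension, and the labels name no genetic change or drug treatment in any group. There were 2 DEK precipitations, 2 precipitations with an antibody against H3K4me3 and 2 samples of non-precipitated chromatin, and the last were not analysed here. The study calls the DEK precipitations independent experiments, and the values of both are given side by side. Tags are the sequenced fragments counted in a peak. For total reads the study states a minimum per sample but not the number behind each list. The members held 29630 tags in replicate 1 and 87201 in replicate 2. The false discovery rate that the peak caller gave was 100% for every member of replicate 1 and between 0.750% and 2.35% for those of replicate 2. These rates were not compared with those of peaks outside the region, so they are not given as a trait of the region.

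DEK is an abundant nuclear protein that binds DNA and histones, and it was first found as a part of the DEK-NUP214 fusion protein of acute myeloid leukemia. H3K4me3, trimethylation of lysine 4 on histone H3, marks the start sites of active genes. Distal 3q carries genes of several tissues side by side, among them the B cell repressor gene BCL6, the transferrin receptor gene TFRC, the Notch target HES1, the mucin gene MUC4 and the somatostatin gene SST.

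A shared interval is the stretch where a peak of replicate 1 and a peak of replicate 2 overlap by at least 1 bp. Tags given for an interval are those of the 2 whole peaks that overlap there, which can be much wider than the interval. The sequences below are stretches of 150 bases from 8 of the 112 shared intervals of the region, written 5′ to 3′ on the plus strand of GRCh37 (hg19) and placed as near to the middle of the interval as a stretch without annotated UTR allowed. Capitals mark matches, on either strand, to letters that known factors read. AGGAAG is a core of ETS sites, and so is the overlapping GAGGAA, with which it can share 5 letters. CACGTG is the E-box, while GGGCGG is read by SP factors and the similar CCCACCC by KLF factors. TGTGGT belongs to RUNX factors, whereas CTGTCAC belongs to TALE homeobox factors. The first 4 come from the single-copy intervals at start sites of coding genes that overlapped H3K4me3 in both lists. No other interval of the region met these conditions.
TRA2B, upstream of the start site, chr3:185656019-185656168: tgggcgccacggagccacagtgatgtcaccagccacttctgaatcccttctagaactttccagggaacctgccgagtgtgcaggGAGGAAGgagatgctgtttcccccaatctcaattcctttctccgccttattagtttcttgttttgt
ALG3 and EEF1AKMT4, first coding exon of EEF1AKMT4, chr3:183967483-183967632: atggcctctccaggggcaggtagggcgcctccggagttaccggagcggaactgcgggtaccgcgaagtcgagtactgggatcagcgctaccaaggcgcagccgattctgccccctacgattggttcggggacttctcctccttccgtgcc
ETV5, intron at the start site, chr3:185825822-185825971: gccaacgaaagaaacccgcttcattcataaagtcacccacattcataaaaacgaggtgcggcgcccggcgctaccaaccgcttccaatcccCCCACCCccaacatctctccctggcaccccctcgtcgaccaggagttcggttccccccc
KLHL6, intron at the start site, chr3:183272966-183273115: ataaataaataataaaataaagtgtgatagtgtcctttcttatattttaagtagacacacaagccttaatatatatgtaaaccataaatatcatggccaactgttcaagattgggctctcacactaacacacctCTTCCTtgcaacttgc

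The next 3 carried the highest lower tag count of the 2 lists and lacked H3K4me3 in both.
TNK2, intron, chr3:195591298-195591447: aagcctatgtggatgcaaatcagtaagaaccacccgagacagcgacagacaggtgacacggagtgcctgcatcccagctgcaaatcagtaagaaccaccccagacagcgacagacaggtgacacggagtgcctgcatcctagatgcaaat
PIGX, intron, chr3:196392146-196392295: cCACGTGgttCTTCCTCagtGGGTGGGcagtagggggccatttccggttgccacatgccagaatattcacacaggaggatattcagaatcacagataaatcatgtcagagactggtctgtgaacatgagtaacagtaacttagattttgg
NRROS, coding exon, chr3:196387615-196387764: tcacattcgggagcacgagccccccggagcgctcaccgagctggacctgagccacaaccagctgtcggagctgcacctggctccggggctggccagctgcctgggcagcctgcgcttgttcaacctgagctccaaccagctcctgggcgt

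The last is the start site of a hormone gene without H3K4me3 in either list.
SST, intron at the start site, chr3:187387670-187387819: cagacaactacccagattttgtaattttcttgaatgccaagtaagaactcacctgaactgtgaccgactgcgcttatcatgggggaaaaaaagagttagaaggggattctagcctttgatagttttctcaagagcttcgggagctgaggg

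The TNK2 stretch matched itself at a shift of 65 bases over 83.5% of its letters, and in the other printed stretches the best shift between 15 and 100 bases gave at most 45.8%. The letters CACGTG and GGGTGGG, the latter the reverse complement of CCCACCC, stood close together at the start of the PIGX stretch. Repeats were counted as the genome copies of the median 31-base word in the central window of an interval (100 bases to each side of the middle), and each printed interval had 1 copy.

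DEK peaks were denser in the distal 15 Mb than in the rest of chromosome 3 in both lists. In replicate 1 there were 18.3 peaks per Mb in the region, 6.39 in the rest of chromosome 3 and 4.75 on the other chromosomes, so that the region held 19% of the chromosome's peaks. In replicate 2 there were 108, 49.1 and 49.9 peaks per Mb, and the region held 15.3% of the peaks of the chromosome. Against the rest of chromosome 3 the density was 2.87 times as high in replicate 1 and 2.20 times as high in replicate 2. Peaks covered 3.48% of the region in replicate 1 and 14.2% in replicate 2, compared with 0.708% and 4.09% of the rest.

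Every 1 Mb window of the region lay above the chromosome's median, which was 6 peaks in replicate 1, 39.5 peaks in replicate 2 and 1 shared interval over 198 windows. The 15 windows held between 11 and 29 peaks in replicate 1 (median 17) and at least 49 in replicate 2 (median 95). The rest of the chromosome reached 25 and 191 peaks in its fullest windows, so single windows elsewhere were as dense as many of those in the region. Of the 10 fullest windows of the chromosome, 5 lay in the region for replicate 1, 3 for replicate 2 and 7 for shared intervals. The window starting at 196 Mb was the fullest for replicate 1, with 29 peaks, and held 180 replicate 2 peaks and the most shared intervals, 18. The window starting at 195 Mb had the most replicate 2 peaks of the chromosome, with 17 of replicate 1 and 15 shared intervals.

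**Figure D1:**
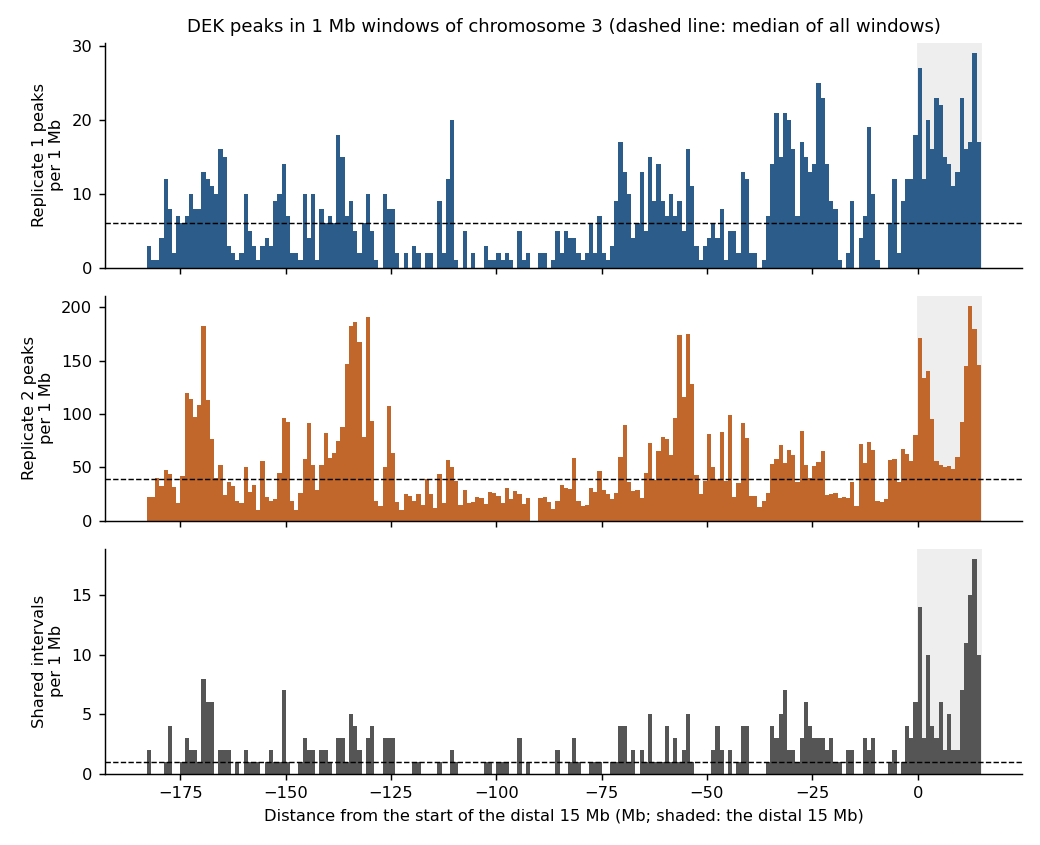
Peaks of DEK replicate 1 (top), peaks of DEK replicate 2 (middle) and shared intervals (bottom) per 1 Mb window of chromosome 3, against the distance of the window from the start of the distal 15 Mb, in Mb. Dashed lines are the medians of all windows, and the bars in the shaded part all stand above them, with the tallest bar of each panel inside it (29 peaks for replicate 1 and 18 shared intervals).

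The excess was not even along the region. Cut into 3 parts of 5 Mb, the region held 98, 75 and 102 replicate 1 peaks from the proximal to the distal part, and 596, 262 and 765 replicate 2 peaks. The replicate 2 density in the middle part, from 188 to 193 Mb, was 52.4 per Mb, near the 49.1 of the rest of the chromosome, while it was 119 and 153 in the flanks. In replicate 1 the middle part still had 15.0 peaks per Mb, against 19.6 and 20.4 in the flanks. Shared intervals numbered 34, 17 and 61. The middle part also had fewer coding genes (15, against 62 and 49) and fewer H3K4me3 peaks (52 in replicate 1, against 171 and 155). Over the 15 windows the Spearman correlation of replicate 2 peaks was 0.804 with coding genes and 0.920 with H3K4me3 peaks of replicate 2. For replicate 1 peaks it was lower, 0.340 with coding genes and 0.514 with H3K4me3 peaks of replicate 1, and it was 0.494 with replicate 2 peaks. In the rest of chromosome 3 the correlations with coding genes and H3K4me3 peaks were 0.784 and 0.743 for replicate 2. There they were 0.523 and 0.765 for replicate 1, and 0.706 between the lists. Windows share their libraries and their gene density, and the part of gene density in the excess was not tested.

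Peaks of the region also held more tags. The median replicate 1 peak had 71.0 tags (quartiles 44 and 113, range 19 to 1861) in the region and 42.0 (28 and 68.0) in the rest of chromosome 3. The median replicate 2 peak had 38.0 tags (27 and 61.0, range 12 to 496), compared with 21.0 (16 and 29). The ratios of the medians were 1.69 and 1.81. The lower end moved as well, since the 5th percentile was 26.7 tags against 22 in replicate 1 and 18.0 against 12 in replicate 2. The peaks were wider at the same time, with median widths of 1399 bp against 938 bp and of 979 bp against 695 bp, and peaks of at least 3 kb made up 14.9% against 1.62% of replicate 1 and 5.98% against 0.712% of replicate 2. Per kb of peak the medians were closer, at 48.0 tags against 43.1 in replicate 1 and 38.5 against 29.3 in replicate 2.

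The fold enrichment over the local background went the other way. Its median was 4.45 in the region and 5.52 in the rest of chromosome 3 in replicate 1, and 3.83 against 4.58 in replicate 2. The score, which grows as the p-value of the peak caller falls (−log10 p, multiplied by 10), had nearly the same median in replicate 1 (64.1 against 65.6) and a higher one in replicate 2 (87.8 against 78.9). The members were thus tag-rich and wide with a lower fold enrichment. Tags in the sequence around the peaks were not counted here, and why the fold enrichment was lower was not tested. The number of copies of the region in U937 was not measured here, and its part in the density, the tags and the sharing was not tested.

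Tags followed the same 3 parts as the density. The median tags of replicate 1 were 83.5, 41.0 and 88.5 from the proximal to the distal part, and those of replicate 2 were 37, 24.0 and 48.0. The middle part thus had about as many tags per peak as the rest of the chromosome (42.0 and 21.0), and its median fold enrichment, 5.44 and 4.62, was also close to that of the rest. In windows of 0.5 Mb the change at the proximal side came before the boundary of the region. The last 0.5 Mb outside it already had a median of 84.0 tags and a lowest peak of 42 tags in replicate 1, against 32.5 and 26 in the window before. In replicate 2 the median was 34.0 and the lowest peak 18, against 22 and 12. The window starting at 184 Mb and the one holding TNK2 and TFRC stood highest in both lists, with medians of 171 and 226 tags in replicate 1 and of 59.0 and 67.5 in replicate 2.

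**Figure D2:**
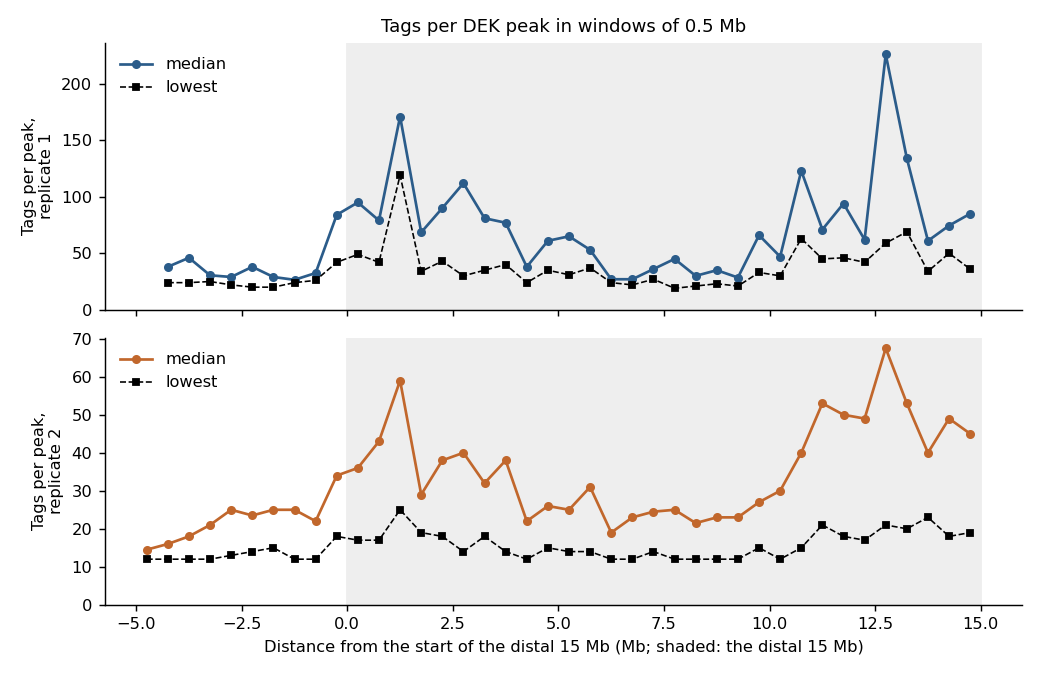
Median (coloured) and lowest (black) tags per DEK peak in windows of 0.5 Mb, for replicate 1 (top) and replicate 2 (bottom), against the distance from the start of the distal 15 Mb, in Mb. Both lists rise in the last window before the shaded region (medians 84.0 and 34.0), fall back in its middle and rise again towards the end of the chromosome, with the highest medians (226 and 67.5) in the same window.

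The boundary itself separated like peaks. The last replicate 1 peak outside, chr3:182993025-182993941, had 48 tags and the first inside, chr3:183016356-183017380, had 75. For replicate 2 the last peak outside, chr3:182994487-182995234, had 25 tags, and the peak across the boundary, chr3:182999655-183000403, which counts as a member, had 31. The last members before the end of the chromosome were chr3:197875917-197883040 in replicate 1, with 441 tags, and chr3:197949561-197952882 in replicate 2, with 97 tags.

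A larger part of each list was shared in the region. Of the 275 replicate 1 members, 96 overlapped a replicate 2 peak, or 34.9% (95% Wilson interval 29.5% to 40.7%, which like the other intervals given here covers counting error only), compared with 22.6% (20.3% to 25.1%) in the rest of chromosome 3 and 27.4% of the whole list. Of the 1623 replicate 2 members, 112 overlapped a replicate 1 peak, or 6.90% (5.77% to 8.24%), compared with 3.07% (2.73% to 3.45%) and 2.90% of the whole list. Wide replicate 1 peaks and the dense cover of replicate 2 peaks both make an overlap easier. When the middle of the replicate 1 peak had to lie inside a replicate 2 peak, 24.7% of the members met the condition (20% to 30.2%) against 17.6% (15.5% to 19.9%) in the rest. Set beside the share of sequence that replicate 2 peaks covered, this was 1.75 times the cover in the region and 4.31 times the cover in the rest of the chromosome. Relative to the cover, the value of the region was thus the lower.

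The overlaps made 112 shared intervals in the region, 28.9% of the 388 on chromosome 3, or 7.47 per Mb against 1.51 in the rest (4.95 times as many). They had a median width of 905 bp (1 to 4697 bp), compared with 642 bp in the rest. In the region 11 replicate 1 peaks met more than 1 replicate 2 peak and gave 27 of the intervals, up to 5 for a single peak, so that the intervals are not independent of each other. Shared replicate 1 members had a median of 97 tags and the others 60.0, and shared replicate 2 members 42.5 and the others 38.0. The replicate 1 peak held more tags than its replicate 2 partner at most intervals, and fewer at 6 of 112. Both scores reached 100 in 9 of 112 intervals, compared with 24 of 276 in the rest of the chromosome and 490 of 4045 on the other chromosomes. The share was thus no higher in the region. The 9 intervals lay at the start sites or in the bodies of ETV5, ATP13A3, TFRC, SLC51A, NRROS and IQCG, near MB21D2 and ACAP2, and near the end of the chromosome.

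By tag count, the 10 strongest peaks of each list were different places. Among the 10 members with the most tags in replicate 1 (386 to 1861), 9 overlapped a replicate 2 peak, against 34.9% of all replicate 1 members. H3K4me3 peaks of both lists were met by 8, against 14.2%. Among the 10 with the most tags in replicate 2 (254 to 496), 0 overlapped a replicate 1 peak, where 6.90% of all replicate 2 members did. With 10 peaks a count of 0 is near that share. H3K4me3 of both lists was met by 3, against 9.18%. Ranked by score the order differed, since the highest replicate 2 score of the region, 1060, belonged to a shared peak downstream of TRA2B. The strongest replicate 1 peak, chr3:197824650-197833587, had 1861 tags, scored 3100 and was enriched 25.1 times over its background. It lay 7865 bp from the nearest annotated start site, and its replicate 2 partner, which overlapped it by 569 bp, had 58 tags. The middle of this replicate 1 peak had 23 genome copies and that of the shared interval 62, and the part of repeats in the tags was not tested. The replicate 1 peaks that followed lay in the noncoding genes LINC01968 (749 tags) and LINC00887 (615 tags) and between genes downstream of MAGEF1 (540 tags). The strongest replicate 2 peak, chr3:195506618-195514472, lay in MUC4, a membrane mucin gene, with 496 tags, a fold enrichment of 2.42 and 12 genome copies at its middle. The next lay in MELTF, the melanotransferrin gene, with 440 tags. Further down, FAM131A had 328 tags in a peak whose middle was 4 bp from a start site.

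The 10 intervals best covered in both lists lay in introns, exons, between genes and at start sites. Ranked by the lower of the 2 tag counts, the highest was an interval in TNK2, which encodes a non-receptor tyrosine kinase, at chr3:195589102-195593643, with 231 tags in replicate 1 and 248 in replicate 2. The second lay in an intron of PIGX, a gene of glycosylphosphatidylinositol anchor synthesis, at chr3:196389872-196394568, with 287 and 227 tags. The next, chr3:196386713-196388666, covered a coding exon of NRROS, which encodes a regulator of latent transforming growth factor beta in myeloid cells, with 187 and 200 tags. It had scores of 112 and 733 and lay next to the PIGX interval. Behind an interval of SLC51A, an interval of 1 bp in TFRC, chr3:195772944-195772944, joined peaks of 182 and 177 tags that only touched. Downstream of TRA2B, chr3:185629061-185630771 had 172 and 158 tags and the highest replicate 2 score of the region, 1060. Near MAGEF1, chr3:184406667-184410008 had 540 and 161 tags, the 540 being those of a replicate 1 peak of 5766 bp that also met another replicate 2 peak. These 6 intervals had 1 genome copy at their middle, and of them the MAGEF1 interval overlapped H3K4me3 in both lists and the interval downstream of TRA2B in replicate 2.

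The other 4 of the 10 highest lay at start sites, for SLC51A that of a shorter transcript inside the gene. SLC51A had 279 and 183 tags, TRA2B 333 and 164, and the noncoding genes LINC02026 and LINC00887 had 241 and 145 and 117 and 122. TRA2B and LINC02026 overlapped H3K4me3 in both lists, and SLC51A and LINC00887 in neither.

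**Figure D3:**
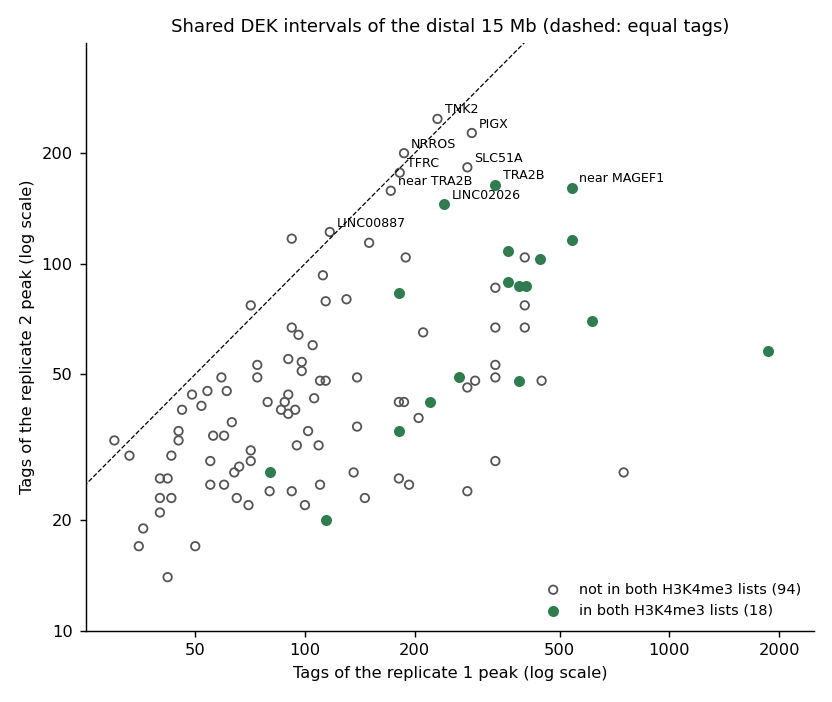
Each of the 112 shared intervals of the distal 15 Mb by the tags of its replicate 1 peak (x axis, log scale) and its replicate 2 peak (y axis, log scale), filled where the interval overlapped H3K4me3 peaks of both lists (18 intervals). Names mark the 10 intervals with the highest lower tag count, TNK2 with 231 and 248 tags at the top, and 6 intervals lie above the dashed line of equal tags.

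A gene was counted as bound when a start site lay within 1 kb of a shared interval's midpoint. Of 126 protein-coding genes of the region, 14 were bound, or 11.1% (6.73% to 17.8%), compared with 38 of 957, or 3.97%, in the rest of chromosome 3, 4.38% on the other chromosomes and 4.40% on chromosomes 1 to 22 and X. Over all 395 annotated genes it was 26, or 6.58% (4.53% to 9.47%), compared with 1.91%, 2.15% and 2.17%. With the replicate 1 list alone 20 coding genes had a peak at their start, and with the replicate 2 list alone 94. Many of these start sites belong to shorter transcripts inside a gene, and with the outermost start site of each gene alone 7 coding genes were bound. SLC51A, ETV5, TFRC, PPP1R2, LRCH3, RUBCN and OPA1 were bound only at such inner start sites. The 14 genes stood at 12 places, since ALG3, EEF1AKMT4 and the readthrough gene EEF1AKMT4-ECE2 share an interval.

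Intervals that overlapped H3K4me3 stood at TRA2B, ALG3 with EEF1AKMT4, ETV5 and KLHL6. TRA2B, the gene of a splicing factor (minus strand, chr3:185632346-185655891), had an interval of 2893 bp over its start site with 333 and 164 tags. ALG3, which encodes a mannosyltransferase of N-glycan assembly, and its divergent neighbour EEF1AKMT4, a methyltransferase gene for elongation factor eEF1A, shared an interval with 361 and 108 tags. ETV5, an ETS family transcription factor gene (minus strand, start site 443 bp from the middle of the interval), had 403 and 87 tags. KLHL6, the gene of a Kelch protein of cullin ubiquitin ligases in B cells, had 264 and 49 tags. These promoters had 1 genome copy at their middle and H3K4me3 in both lists.

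SLC51A encodes the alpha subunit of a bile acid and steroid transporter. It had 3 intervals under a single replicate 1 peak of 279 tags, with replicate 2 tags of 183, 46 and 24, none of them at H3K4me3. TFRC, the receptor for iron-loaded transferrin, had 293 and 48 tags at an interval 303 bp from the start site of a shorter transcript inside the gene, outside H3K4me3 of either list and with 80 genome copies at its middle. CRYGS, a lens crystallin gene, had 98 and 54 tags with 423 copies, and PPP1R2, the gene of an inhibitor of protein phosphatase 1, had 61 and 45 tags with 144 copies. LRCH3 had 109 and 32 tags with 74 copies. With the highest SLC51A interval, at 39 copies, these 5 places thus lay in repeated sequence, and its part in the tag counts was not tested.

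RUBCN, a negative regulator of autophagy, had 136 and 27 tags at an interval inside the gene, 854 bp from the start site of a shorter transcript. SST, the gene of the hormone somatostatin, had 55 and 25 tags. OPA1, which encodes a GTPase for fusion of the mitochondrial inner membrane, had the fewest, 40 and 23. These 3 intervals were outside both H3K4me3 lists. HES1, a repressor downstream of Notch, missed the limit because the middle of its interval was 1070 bp from the start site. It had 386 and 87 tags at chr3:193854360-193855654 and H3K4me3 in both lists, and a second interval under the same replicate 1 peak, with 48 replicate 2 tags, counted for a noncoding neighbour.

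**Figure D4:**
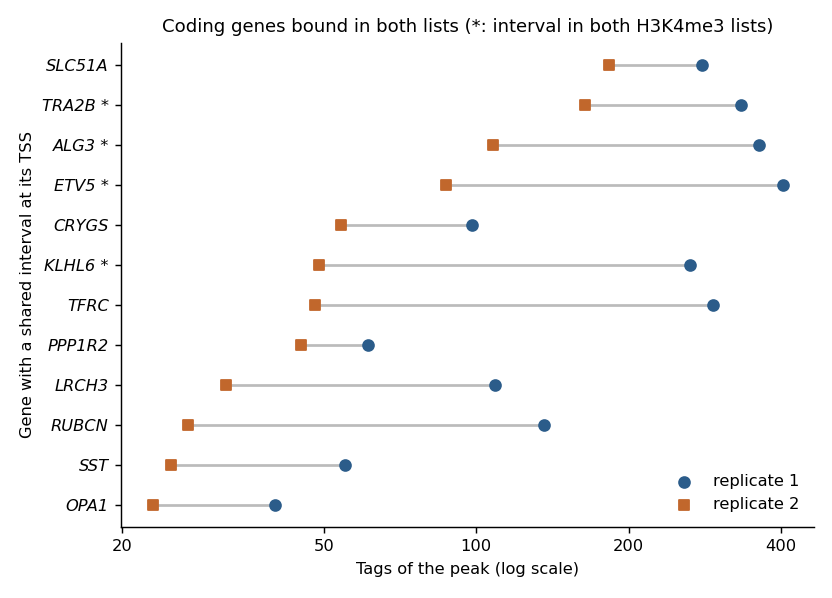
Tags of the replicate 1 peak (circles) and the replicate 2 peak (squares) at the start sites of coding genes with a shared interval, on a log axis, with ALG3 standing also for EEF1AKMT4 and EEF1AKMT4-ECE2. Stars mark intervals that overlap both H3K4me3 lists, and every circle lies to the right of its square, from OPA1 with 40 and 23 tags to SLC51A with 279 and 183.

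The noncoding genes with a shared interval at a start site were LINC02026, LINC00887, SDHAP1, CYP2AB1P, LINC02051, ZDHHC1P1, HRG-AS1, ABCC5-AS1, MIR28, TPRG1-AS1 and 2 unnamed transcripts. SDHAP1, CYP2AB1P and HRG-AS1 were bound only at start sites of shorter transcripts inside the gene. SDHAP1, a copy of the succinate dehydrogenase subunit A gene, had 401 and 104 tags, and MIR28, a microRNA gene inside LPP, had 70 and 22 tags. The middle of the MIR28 interval had 92 genome copies and that of an unnamed transcript 7508, and the part of repeats in their tags was not tested. Of 137 long noncoding RNA genes 9 were bound, or 6.57% (3.49% to 12%), against 1.44% in the rest of the chromosome.

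Groups of genes of the region were listed by function, and shared intervals at start sites were few in every group. Of 12 genes of translation and RNA handling, 10 had a replicate 2 peak at the start, 2 a replicate 1 peak and 1, TRA2B, a shared interval. The initiation factor gene EIF4A2 and the ribosomal protein gene RPL35A each had a single replicate 2 peak of 47 tags in the gene and 0 peaks of replicate 1. Of 9 genes of ubiquitin, SUMO and chromatin factors, 6 had a replicate 2 peak at the start and KLHL6 a shared interval. Further inside, YEATS2, a histone reader gene, had 28 replicate 2 peaks, 3 replicate 1 peaks and 1 shared interval over 115 kb. Of 10 genes of membrane traffic, lipid and iron, 9 had a replicate 2 peak at the start and 2, TFRC and LRCH3, a shared interval, and 7 had a shared interval somewhere in the gene. Over the region 47 of 126 coding genes had one in the gene, or 37.3%, and among those of at least 50 kb 27 of 49, or 55.1%. All genes of these 3 groups had H3K4me3 at a start site in both lists.

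Of 10 genes of blood cell transcription and receptors, 8 had a replicate 2 peak at the start, 3 a replicate 1 peak (ETV5, ST6GAL1 and HES1) and 1 a shared interval. BCL6 had 7 replicate 2 peaks of up to 112 tags and 0 of replicate 1. LPP, a LIM domain gene of 737 kb, had the most peaks of each list among coding genes of the region, 17 in replicate 1 and 47 in replicate 2, and with PIGX the most shared intervals, 5, but per 100 kb its 6.37 replicate 2 peaks were few beside the 32.9 of TNK2 and the 35.9 of NRROS.

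Genes of other tissues also carried replicate 2 peaks. Of 6 genes of liver plasma proteins and adiponectin, 3 had a replicate 2 peak at the start (AHSG, FETUB and HRG), and the group had 0 replicate 1 peaks and 0 shared intervals. Of 7 epithelial genes 5 had a replicate 2 peak at the start, and MUC4 alone held 19 replicate 2 peaks and 0 of replicate 1. Of 8 neuronal genes 7 had a replicate 2 peak at the start and 1, SST, a shared interval. H3K4me3 in both lists was found at 0 of the 6, 0 of the 7 and 1 of the 8 (CLCN2, a chloride channel gene). With groups this small, and with 94 of 126 coding genes of the region carrying a replicate 2 peak at the start, no difference between groups was tested.

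Most shared intervals of the region lay outside H3K4me3. In the region 18 of 112 shared intervals met a peak in both H3K4me3 lists, or 16.1% (10.4% to 24.0%), compared with 72 of 276, or 26.1% (21.3% to 31.6%), in the rest of chromosome 3 and 33.7% on chromosomes 1 to 22 and X. For replicate 1 peaks it was 39 of 275, or 14.2% (10.6% to 18.8%), against 27.6% (25.1% to 30.2%) in the rest of the chromosome and 32.9% on chromosomes 1 to 22 and X, although the members were wider. For replicate 2 peaks the region had the higher share, with 149 of 1623, or 9.18% (7.87% to 10.7%), against 7.12% (6.60% to 7.67%) and 7.74%. H3K4me3 itself was denser in the region, with 25.2 peaks per Mb against 15.2 in its replicate 1 and 14.8 against 9.11 in its replicate 2. Intervals and peaks are not replicates, so these shares carry no test, and those of shared intervals have Wilson intervals that overlap between the region and the rest of the chromosome.

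**Figure D5:**
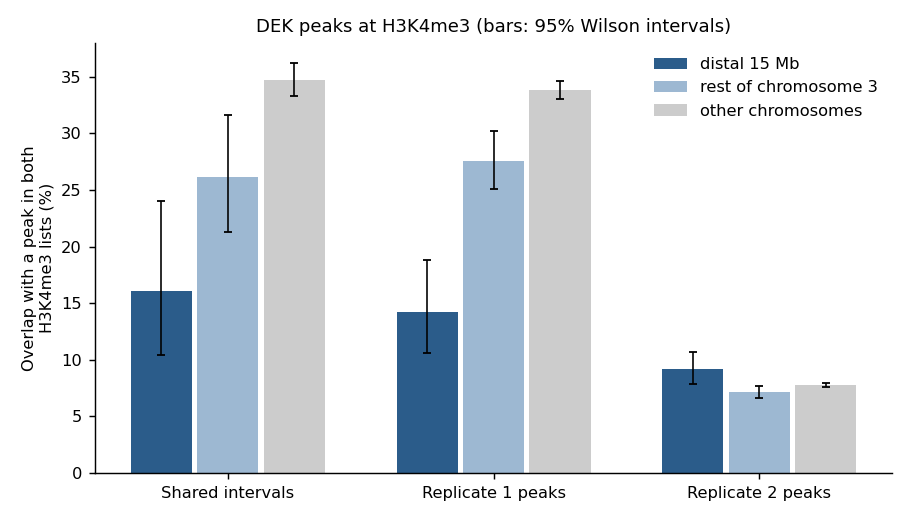
Percent of shared intervals, replicate 1 peaks and replicate 2 peaks that overlap a peak in both H3K4me3 lists, in the distal 15 Mb (dark), the rest of chromosome 3 (light) and the other chromosomes (grey), with 95% Wilson intervals. The dark bars are the lowest for shared intervals (16.1%) and replicate 1 peaks (14.2%) and the highest for replicate 2 peaks (9.18%).

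Genes with a shared interval at the start were also counted by the mark. Of 79 coding genes of the region with H3K4me3 at a start site in both lists, 11 had a shared interval at the same or another of their start sites. This was 13.9% (7.96% to 23.2%), compared with 35 of 572, or 6.12% (4.43% to 8.39%), in the rest of chromosome 3. Of 39 coding genes with the mark in neither list 1 had a shared interval, or 2.56% (0.454% to 13.2%), compared with 3 of 357. Of 8 with the mark in a single list 2 had one, or 25% (7.15% to 59.1%), compared with 0 of 28, whose Wilson interval reaches 12.1%. Of the 11, TFRC, PPP1R2, LRCH3, RUBCN and OPA1 had the mark at a start site but not at the interval itself. Within 1 kb of a start site lay 27 of the 112 shared intervals, or 24.1% (17.1% to 32.8%), against 18.1% (14.0% to 23.1%) in the rest. A further 40.2% lay inside coding genes and 9 intervals were more than 50 kb from any start site.

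GC content and motif letters were set beside those of the shared intervals in the rest of the chromosome. The median GC content of the same central windows was 51.7% in the region and 54.0% in the rest. The windows were single-copy in 57.1% and 56.2%. Among the motif letters, AGGAAG was found in 13.4% of the 112 windows (8.29% to 20.9%) and in 18.1% of the 276 windows of the rest. In single-copy windows it was found in 21.9% of the region and 28.4% of the rest. It stood in 18.6% of windows of the same length placed every 1 kb along the region. CACGTG was found in 4.46% and 2.90%, against 1.85% of the windows along the region, and GGGCGG in 15.2% and 18.8%, against 3.34%. In single-copy windows GGGCGG fell to 7.81% in the region and stood at 18.7% in the rest. TGTGGT was found in 17%, 15.2% and 13.6% of these sets, CTGTCAC in 5.36%, 7.97% and 4.55%, CCCACCC in 5.36%, 3.99% and 4.03%, and GAGGAA in 7.14%, 11.6% and 15.6%. A match is a run of letters and not a binding site.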

How the data were processed

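DEK and H3K4me3 were precipitated from U937 cells. The authors converted bases with OLB 1.9, used Bowtie 2 to align paired reads (build hg19), and called peaks with MACS 1.4.1. The study names non-precipitated chromatin as its negative control, and which control sample went with which list is not stated. The deposited lists give per peak a count of tags, not normalized, a score of 10 times the −log10 p-value, a fold enrichment (ratio to local background) and, for DEK, a false discovery rate in percent. The study states a minimum of reads per sample but no total for each list. The members and gene lists were chosen with earlier results of these data known.

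Peaks were intersected at 1 bp or more and assigned to the region by any overlap. Start sites came from GENCODE 44 on GRCh37, whose chromosome 3 is that of hg19. Copies are the median genome count of the 31-base words of the window reaching 100 bases to each side of a peak's middle. Shares have 95% Wilson intervals. No model was fitted. Named are coding genes within 1 kb of a shared interval, genes at the 10 intervals with the highest lower tag count, members of 7 gene lists (USP13 lies outside the region, and LEPREL1 is an older name of P3H2, counted once), and, chosen after their values were seen, the strongest peaks of each list, the intervals with both scores of at least 100, and HES1. The scripts (Python 3.11.15, NumPy 2.4.6, pandas 2.3.3, Numba 0.67.0, Matplotlib 3.10.9) were tested on simulated data. Alternatives were other boundaries, references, scores, overlaps, list lengths and summaries.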

Additional observations from a re-analysis of the deposited data

How the results depend on the processing

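Of 57 alternative values 25 stayed within the error of the reported value and 32 moved. The error was the 95% interval for densities and shares, 1 SD between the lists for tags, and 1.5 times for gene counts. In 0 of the 47 with a reference did the direction turn, and the gene counts had none. Sharing set beside the cover of replicate 2 peaks was lower in the region (1.75 times against 4.31). That version was not among the 57. The ratio of peak densities, 2.87 in replicate 1 and 2.20 in replicate 2, became 2.22 and 2.88 with scores of at least 100, and in replicate 1 3.86 against the other chromosomes. In replicate 2 it became 4.22 with the list cut to the length of replicate 1, 2.08 with the region starting 1 Mb later, 2.07 without the densest window and 2.46 with single-copy windows. The shared percent, 34.9 and 6.90, became 20.4 and 3.45 when peaks had to cover each other by 50%, 22 and 1.36 with scores of at least 100, and 9.09 and 8.53 with equal list lengths. With the middle of the replicate 1 peak inside a replicate 2 peak it was 24.7. The ratio of median tags, 1.69 and 1.81, became 1.11 and 1.31 per kb of peak, 1.88 and 2.08 by means, 1.58 and 1.93 with scores of at least 100, 1.98 and 1.57 for shared peaks, 1.48 and 1.9 against the other chromosomes, and 2.10 and 2.0 without the middle 5 Mb. Bound genes, 26 with 14 coding, became 16 and 7 with the outermost start site of each gene and 11 and 3 with an overlap of at least 50%. Leaving out a DEK replicate gave between 34 and 188 genes and 20 to 94 coding genes. H3K4me3 at shared intervals was 14.6% to 23.2%, each time below its reference. Why these values moved was not tested. The single-copy windows, the middle condition, the part left out and a count of intervals once per replicate 1 peak were chosen after seeing the data. No paired analysis was possible because no result comes from a test. Tag counts without total reads limit comparisons between the lists.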
